A study of Mus musculus with 2 samples.

Results

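Of 46200 accessible regions in mouse megakaryocyte-erythroid progenitors (MEP), 1295 had their summit more than 200 kb from the nearest transcription start site (TSS) of a protein-coding gene, in the mm10 build with GENCODE annotation. These desert regions came from the authors' conservative peak list, which keeps peaks whose rank repeats between the libraries by the irreproducible discovery rate (IDR). Overlapping or touching peaks on chromosomes 1 to 19, X and Y were merged, and the summit was that of the peak with the highest fold. Position alone chose them, not signal. Of the 1295, 8 aligned to mitochondrial DNA and were set aside, which left 1287 desert regions, 2.79% (Wilson 95% interval 2.64 to 2.94) of the 46174 regions that remained. They were set beside 6437 far regions (summit 50 to 200 kb from a TSS), 25631 near regions (1 to 50 kb) and 12819 promoter regions (within 1 kb).

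The measurement was ATAC-seq, which reads where a transposase can cut the chromatin of intact nuclei. The cells were primary MEP of male C57BL/6J mice, 5 to 6 weeks old, with 50000 cells in each of 2 libraries, which are biological replicates 1 and 2 of a single group with no genotype or treatment named. Both libraries name the same donor entry, so separate animals are not stated and the spread between libraries may be technical. The fold of a peak is the authors' enrichment over local background, it was not scaled between libraries, and read depth is unknown.

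MEP sit in the bone marrow upstream of erythrocytes and of the megakaryocytes that shed platelets. Enhancers in such cells can act on promoters over long distances, and those bound by the factors GATA1 or GATA2 together with TAL1, which recognises an E-box, control many erythroid and megakaryocytic genes. CTCF marks loop anchors and domain borders and is also known from the antigen receptor loci, where long arrays of gene segments are joined in lymphocytes. A gene desert is a long stretch of genome without protein-coding genes, and deserts often lie beside developmental regulators.

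The name desert held for part of the set. The rule counts protein-coding starts only, and gene segments of antigen receptors are annotated as other gene types. As a result 93 of the 1287 desert regions lay inside antigen receptor loci, each spanned by its named segments, and these are given apart below. A TSS of another gene type or of a noncoding transcript lay within 1 kb of 147 desert regions (11.4%), against 7.63% of far regions. The difference from far regions was 3.79 percentage points (Newcombe 95% interval 2.04 to 5.75), and outside the receptor loci the desert share was 7.12%. Over all 46174 regions 34.4% had a TSS of any type within 1 kb. That share also counts protein-coding starts, which all 12819 promoter regions have, so it is not the same measure. Those 147 comprised 62 at genes annotated as antigen receptor segments, of which B230359F08Rik and Tcrg-V7 carry other names than the segments counted below, 52 at long noncoding genes, 21 at pseudogenes, 7 at noncoding transcripts of protein-coding genes and 5 at small RNA genes. When starts of every gene type were counted, 51 desert regions had none within 200 kb.

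The sequences that recur through the results are shown first, as 101 bp windows from the C57BL/6J reference genome (GRCm38, the mm10 assembly). The strongest desert regions with a composite of CTG placed 7 to 9 bases before a GATA match, the arrangement known for TAL1 with GATA factors, are given with that composite in capitals.
Gpc5 intron, chr14:115979454-115979554, plus strand: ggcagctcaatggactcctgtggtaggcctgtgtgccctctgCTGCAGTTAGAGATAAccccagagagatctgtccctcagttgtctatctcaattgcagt
Tusc1 to Gm10306, chr4:93540810-93540910, plus strand: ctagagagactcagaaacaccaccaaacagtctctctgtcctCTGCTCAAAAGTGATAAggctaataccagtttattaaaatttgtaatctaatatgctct
Lcorl to Slit2, chr5:46488550-46488650, minus strand: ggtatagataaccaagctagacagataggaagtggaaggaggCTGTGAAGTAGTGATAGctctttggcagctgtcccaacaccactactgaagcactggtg
Kdm4c to Dmac1, chr4:75042324-75042424, minus strand: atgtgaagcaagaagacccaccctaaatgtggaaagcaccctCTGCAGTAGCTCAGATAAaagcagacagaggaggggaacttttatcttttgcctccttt
Rsl24d1 to Unc13c, chr9:73380994-73381094, plus strand: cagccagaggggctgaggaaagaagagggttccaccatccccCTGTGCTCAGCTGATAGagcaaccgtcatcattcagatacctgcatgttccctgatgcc
These 5 regions had fold 18.8, 15.6, 14.6, 14.5 and 14.4. The Gpc5 region lay in an intron of Gpc5, a cell-surface glypican gene, and reached 18.2 in replicate 1 and 16.7 in replicate 2. It stood 887 kb from the nearest protein-coding TSS, so a strong region with a composite match could lie most of a megabase from any coding start.

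Desert regions in copied sequence with a match to the CTCF core are shown next, with the match in capitals. They lie beside the variable segments Trav8d-2, Trav8n-2 and Trav8-2 of the T cell receptor alpha locus, which are copies of each other.
Trav8d-2, chr14:53042162-53042262, plus strand: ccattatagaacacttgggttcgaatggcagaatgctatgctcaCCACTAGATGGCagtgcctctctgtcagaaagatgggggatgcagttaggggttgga
Trav8n-2, chr14:53345696-53345796, plus strand: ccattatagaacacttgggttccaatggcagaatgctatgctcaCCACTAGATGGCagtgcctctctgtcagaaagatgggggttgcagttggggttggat
Trav8-2, chr14:53738109-53738209, plus strand: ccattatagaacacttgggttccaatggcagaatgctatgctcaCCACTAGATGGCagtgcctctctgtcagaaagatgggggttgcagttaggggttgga
Across these 101 bp the Trav8d-2 and Trav8n-2 windows differed by 3 edits, Trav8d-2 and Trav8-2 by 2, and Trav8n-2 and Trav8-2 by 1. The CTCF core was the same in all 3 copies.

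Accessible regions became sparse with distance but did not end. Sequence more than 200 kb from a TSS made up 694 Mb, or 26.2% of the 2648 Mb outside assembly gaps, and held 1.85 regions per Mb. Density was 8.82 per Mb in far sequence, 22.1 in near sequence, 199 in promoter windows and 17.4 over the genome. Within the deserts it was 3.46 per Mb at 200 to 300 kb (695 regions), 1.72 at 300 to 500 kb (374), 0.953 at 500 to 1000 kb (186) and 0.402 beyond 1000 kb (32). With the receptor loci set aside the last 2 values were 0.641 and 0.314 per Mb. Signal did not follow density: the median fold in those 4 distance bands was 7.11, 7.11, 7.25 and 6.75, and the share with a GATA match was 57.7%, 55.1%, 57% and 56.2%.

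**Figure D1:**
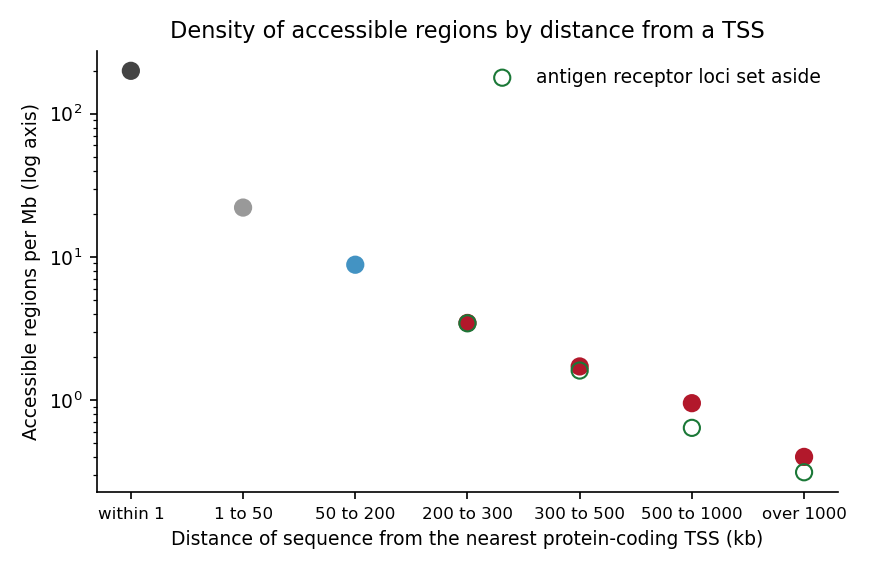
Accessible regions per Mb (log axis) in sequence at 7 distances from the nearest protein-coding TSS, low to high; filled points are all regions of the conservative list and open circles leave out the antigen receptor loci. The 4 desert points, at 3.46, 1.72, 0.953 and 0.402 per Mb, all lie below the 8.82 per Mb of far sequence.

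By chromosome, chromosome 13 had the highest desert density at 3.95 per Mb (111 regions). Chromosome 14 held the most regions, 137, of which 64 lay outside the receptor loci. The X chromosome had 16 desert regions at 0.388 per Mb, and the Y had 4 at 0.101 per Mb. Far sequence on the X held 3.02 regions per Mb, also the lowest of any chromosome but the Y.

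Most desert summits, 792 of 1287 (61.5%), lay outside every annotated gene, against 44.2% of far summits (difference 17.4 points, 14.4 to 20.3) and 38.2% of all summits. Introns of protein-coding genes held 280 (21.8%), against 42.2% of far and 41.5% of all summits. Introns of noncoding genes held 174 (13.5%), against 9.07% of far and 4.32% of all summits. An intron this far from every coding start needs a long protein-coding host gene, so the length of these hosts follows from the rule. Sox5, a transcription factor of cartilage and nerve, had 15 desert regions in its introns, the methyltransferase gene Smyd3 had 11 and Sugct, an enzyme of glutarate metabolism, had 10. Thsd7b and Wwox had 9 each. At long noncoding genes, the region at the start of Firre, an X-linked RNA known for nuclear organisation, had fold 12.4 in replicate 1 and 13.1 in replicate 2.

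Desert regions had a somewhat higher fold than other distal regions in the pooled list. Their median fold was 7.11 (order-statistic 95% interval 6.96 to 7.25), against 6.7 in far regions (6.65 to 6.8), 6.2 in near and 7.66 in promoter regions. In the libraries' own lists the desert median was 6.36 in replicate 1 (n = 1207) and 7 in replicate 2 (n = 1233), against 5.98 and 6.56 in far regions. The 20% of all regions with the highest fold included 332 desert regions (25.8%), against 19% of far regions and 13.2% of near regions; by construction the share over all regions was 20%. That difference was 6.8 points from far regions (4.28 to 9.43). Median width was 465 bp in desert and 494 bp in far regions. Median −log10 p was 33.1 (31.4 to 34.8) in desert and 32.6 (32.2 to 33.2) in far regions, and these intervals overlap. The median GC content of the 201 bp around the summit was 47.8% in desert regions, 49.3% in far and 50.7% in near regions.

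Most desert regions were found in both libraries. Of the 1287, 1175 had a peak in some list of each library, 80 had none in replicate 1, 54 had none in replicate 2, and 22 of these were in neither. Across the 1175, Spearman's rho between the libraries was 0.864, and it was 0.870 in far regions. This is a description of regions that the conservative list keeps because their rank repeats between these same libraries, so it does not measure how well the libraries rank desert regions. The fold was higher in replicate 2 in 828 regions (70.5%), against 71.2% of far regions and 71.7% of all regions. The median log2 ratio of replicate 2 over replicate 1 was 0.13 in desert regions and 0.11 in all regions. A difference of more than 1.5 times was found in 30 (2.55%), against 2.12% of far regions and 1.55% of all regions. Among regions missing from 1 library's longer list, the strongest in replicate 1 alone lay at chr3:148491824-148491994 (fold 6.97) and chr12:74803857-74804041 (6.12), and in replicate 2 alone at chr10:125725760-125725914 (9.98) and chr13:16763818-16764272 (7.81).

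**Figure D2:**
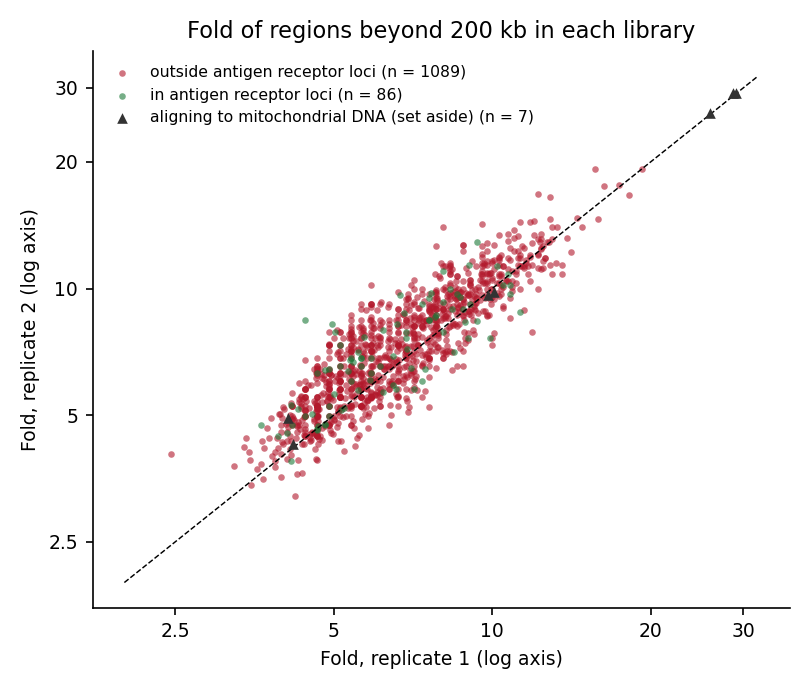
Fold of each desert region in replicate 1 (x) and replicate 2 (y), both on log axes, with regions in antigen receptor loci in green and mitochondrial alignments as black triangles; the dashed line marks equal fold. Points follow the line, more of them above it, and the 3 strongest mitochondrial alignments lie above 25 in both libraries.

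Under a stricter criterion, 498 desert regions (38.7%) were in the IDR-thresholded list of both libraries, each made from that library alone, against 39.4% of far regions, 38.9% of near regions and 48.6% of all regions. The difference from far regions was -0.672 points (-3.56 to 2.27). The list of replicate 1 held 597 (46.4%), that of replicate 2 held 671 (52.1%), and 517 (40.2%) were in neither. Both longer lists held 1174 (91.2%), against 91.5% of far regions and 92.6% of all regions. At like fold the picture differed. Among regions with fold 5.99 to 7.27, 50 of 311 desert regions (16.1%, 12.4 to 20.6) were in both thresholded lists, against 26.6% of far regions (24.5 to 28.9) and 36.7% of near regions. Among those with fold above 9.18, the share was 90.4% (86.7 to 93.1) in desert, 92.2% in far and 93.6% in near regions, and there the desert and far intervals overlap. In the band from 5.99 to 7.27 the median −log10 p was 27.4 in desert, 29.2 in far and 33.1 in near regions, and the median width was 421, 472 and 473 bp. The part of significance and width in this order was not tested.

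**Figure D3:**
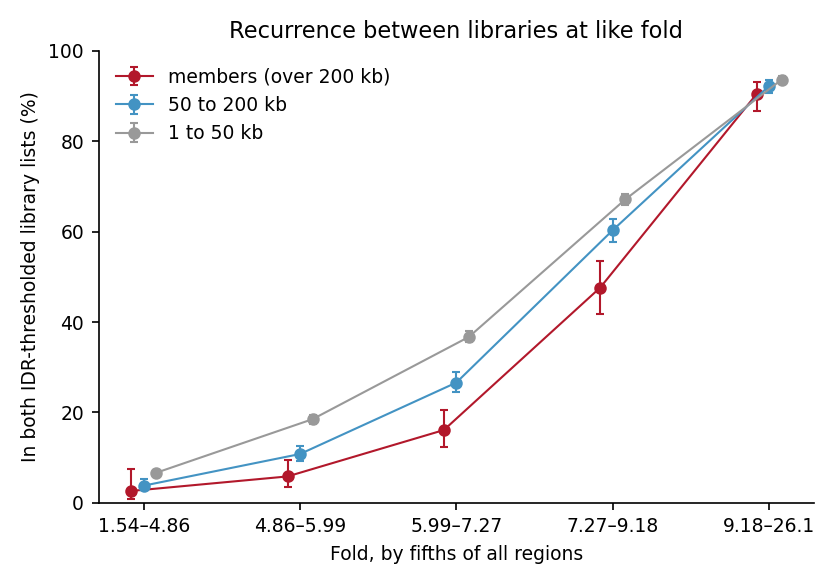
Share of regions in the IDR-thresholded lists of both libraries (y, percent) by fold in 5 bands of 20% of all regions each (x), for desert, far and near regions, with Wilson 95% intervals. Desert regions have the lowest share in every band, 16.1% against 26.6% and 36.7% in the middle band, and the 3 classes come together above fold 9.18.

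After the mitochondrial alignments were set aside, the 10 highest folds ran from 15.6 to 21.2. Of these, 6 had a summit sequence that is mostly unique in the genome. The region in a Gpc5 intron is shown above. A region between Manea and Epha7, an ephrin receptor gene, had fold 15.7 in replicate 1 and 19.2 in replicate 2. One in an intron of Edil3, an integrin ligand, had 15.9 and 14.6. The region between Mtx2 and Hnrnpa3 had 12.9 and 16.5, that between Tusc1 and Gm10306 had 14.5 and 14.7, and that between Eipr1 and Myt1l had 14.8 and 14.0. All 6 were strong in both libraries, and Gpc5, Edil3, Mtx2 to Hnrnpa3 and Tusc1 to Gm10306 held a GATA match within 100 bp of the summit.

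The other 4 of the 10 lay on duplicated sequence. The highest of all, chr8:57110739-57111314 between Fbxo8 and Hand2, had fold 19.3 in replicate 1 and 19.2 in replicate 2, and its summit window matched a far region on chromosome 2, of fold 12.6, at 100% over 201 bp. The remaining 3 sat within 1 kb of the start of a processed pseudogene, an inserted copy of a spliced RNA. A promoter match here means sequence centred within 1 kb of a coding start, on either side, so it may be transcribed sequence. At chr1:94469838-94470217, beside Gm7895, the fold was 16.3 and 17.5, and the window matched the promoter of Ppm1b at 98.8% over 169 bp. At chr7:57881129-57881368, beside Gm5596, the fold was 12.2 and 16.8, and the window matched the promoter of Depdc1a at 100% over 131 bp. Near Gm21769 at chr8:20122133-20122642 the fold was 17.4 and 17.6. Its window had 6 other copies, 5 of them on chromosome 8. The best matched at 98% over 201 bp and lay in a far region of fold 14.7, and the promoter of Nsfl1c matched at 91.5% over 199 bp. The Ppm1b promoter itself had fold 8.44, below its desert copy, and the Depdc1a promoter had 14.4.

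Sequence copies were more frequent among desert regions than elsewhere. A mostly single-copy summit was found in 1192 of 1287 (92.6%), against 97.9% of far regions and 98.1% of all regions (difference from far -5.28 points, -6.88 to -3.92). Of the 95 others, 60 were in antigen receptor loci, and 16 matched accessible sequence within 1 kb of a coding start. The remaining 19 were other multi-copy sequence. Outside the receptor loci 97.1% of desert summits were single-copy. The difference from far regions was then -0.834 points (-2 to 0.0661), an interval that includes 0, and from near regions it was -1.1 points (-2.23 to -0.268). The 16 regions that matched sequence near coding starts had fold 6.09 to 20.2 (median 9.28), and 14 of them lay within 1 kb of a pseudogene start. Of the 16, 8 were among the 20% of all regions with the highest fold. In 7 the fold was higher than that of the region at the matched start. Whether a match covered upstream or transcribed sequence was not examined. How reads that match several places were assigned is not given in the sources used here, so accessibility of a copy and of its source cannot be told apart.

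The 8 desert regions on mitochondrial sequence included the highest folds of the whole set. Their share, 0.618% of 1295 (0.313 to 1.21), compared with 0.0621% of far, 0.0468% of near and 0.0563% of all regions, a difference from far regions of 0.556 points (0.236 to 1.15). At chr6:9889881-9890222 the fold was 28.7 in replicate 1 and 29.2 in replicate 2, with 95.5% identity over 310 bp. At chr5:60042656-60043142 it was 29 and 29.1 (97.9% over 383 bp), and at chr12:97061376-97061849 it was 25.9 and 26.1 (99.7% over 365 bp). All 3 were above every other desert region in both libraries. The other 5 lay together at chr4:80002529-80005242 between Ptprd and Tyrp1, with fold 3.85 to 10.3. The interval above counts these 5 neighbours as separate regions, so it may be too narrow. Stretches of such regions are printed with the bases that differ from the mitochondrial genome in capitals.
chr6 window, chr6:9889936-9890136, plus strand: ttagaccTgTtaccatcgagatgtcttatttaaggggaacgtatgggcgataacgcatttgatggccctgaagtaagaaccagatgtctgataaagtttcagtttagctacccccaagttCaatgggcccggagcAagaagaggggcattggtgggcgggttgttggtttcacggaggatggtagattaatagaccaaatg
chr12 window, chr12:97061456-97061656, plus strand: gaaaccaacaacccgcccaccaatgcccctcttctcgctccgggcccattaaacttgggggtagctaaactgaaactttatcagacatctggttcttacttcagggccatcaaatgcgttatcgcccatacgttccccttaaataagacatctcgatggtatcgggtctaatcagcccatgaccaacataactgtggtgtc
The first window has 4 bases in capitals. The second has 0, so over its 201 bp a read from mitochondria and a read from chromosome 12 are spelled the same.

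Desert and far regions were close in motif content. A GATA match (the letters GATA with A or T before and A or G after, on either strand) was present in the 201 bp summit window of 731 desert regions (56.8%, 54.1 to 59.5), against 57% of far, 52.7% of near and 43.4% of all regions. The difference was -0.169 points from far regions (-3.15 to 2.78) and 4.15 from near regions (1.36 to 6.9). Windows 500 bp to either side of the summits held a match in 35.6% in desert, 32.4% in far and 29.9% in near regions, so that away from the summit the desert share was higher by 3.23 points than far (1.23 to 5.27) and by 5.75 points than near (3.88 to 7.66). The difference from near regions was thus no larger at the summits than beside them. The composite of CTG and GATA, each of which is also a GATA match, was in 206 summit windows (16%) against 15.4% of far and 11.3% of all regions, and in 2.29% of flanking windows. The CTCF core was in 138 (10.7%) against 9.74% of far and 7.74% of all regions, and in 0.117% of flanking windows. A GATA or a CTCF match was in 837 (65%), against 64.3% of far and 49.3% of all regions, and both were in 32 (2.49%), against 2.41% of far and 1.85% of all regions.

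For the other motifs searched, all on both strands, the interval of the difference between desert and far regions included 0, but for KLF it did not once the antigen receptor loci were set aside. RUNX (TGCGGT or TGTGGT) was found in 25.2% of desert against 24.5% of far and 22.2% of all regions. ETS (AGGAAG or CGGAAG) was found in 32.2% against 30.6% of far and 33.7% of all regions. KLF (CCNCNCCC), the family of the erythroid factor KLF1, was in 21.1% against 23.7% of far and 34.6% of all regions; the difference from far was -2.53 points (-4.91 to 0.00475), and outside the receptor loci it was -2.64 points (-5.09 to -0.0276). In the flanking windows KLF was in 12.3% of desert against 16% of far windows. MEIS (TGACAG) reached 16.2% against 18.3% of far and 15.9% of all regions. AP-1 and NFE2 (TGANTCA) reached 7.77% against 7.88% of far and 6.11% of all regions. For CEBP (TTGCNNAA), factors of granulocytes and macrophages, the share was 8.94% against 7.75% of far and 6.74% of all regions, and 9.13% in the flanking windows. STAT (TTCNNNGAA) had 4.51% against 4.49% of far and 4.27% of all regions, and 7.03% in the flanks. Against windows 500 bp away from the same summits, GATA, the composite, RUNX, ETS, KLF, AP-1 and CTCF matches were more frequent at desert summits with intervals that did not overlap, MEIS and CEBP intervals overlapped, and STAT was lower at the summits.

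**Figure D4:**
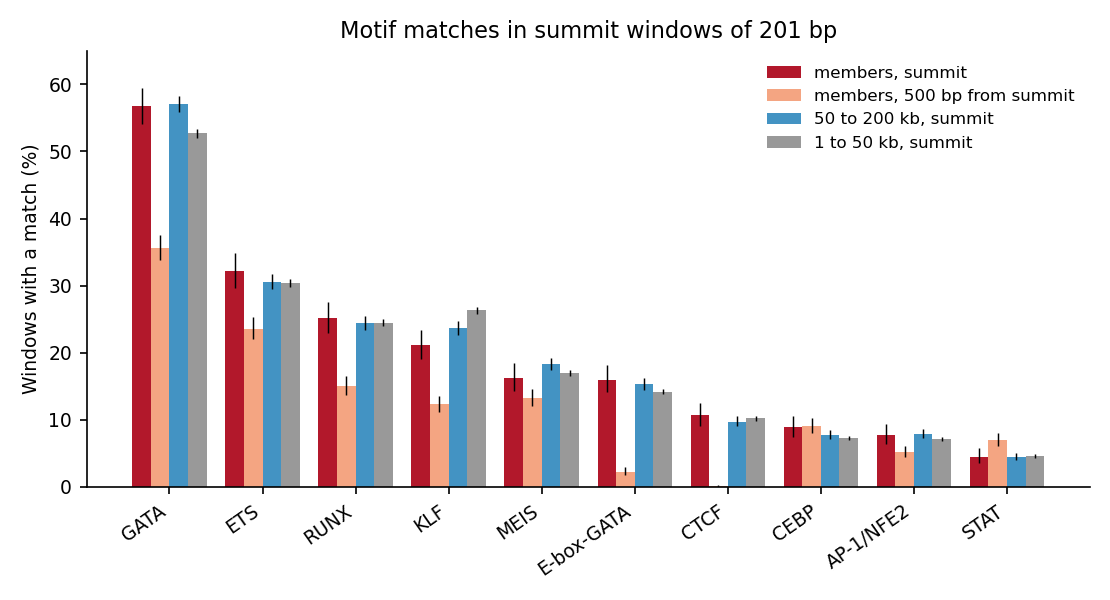
Share of 201 bp windows with a motif match (y, percent, Wilson 95% intervals) for 10 motifs (x), in desert summit windows, in windows 500 bp from desert summits, and in far and near summit windows. Desert and far bars are close for each motif, with GATA at 56.8% and 57%, and the flanking windows lie at 35.6% for GATA and 0.117% for CTCF.

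The composite was most frequent in the strongest desert regions. It was present in 79 of the 332 with fold above 9.18 (23.8%, 19.5 to 28.7) and in 18 of the 114 with fold below 4.86 (15.8%, 10.2 to 23.6), and these intervals overlap. The bands between did not follow the order of fold: the share was 12.1% (8.63 to 16.6) at fold 4.86 to 5.99, 11.3% (8.2 to 15.2) at 5.99 to 7.27 and 15.8% (11.9 to 20.5) at 7.27 to 9.18. The first and second of these intervals lie below that of the strongest regions. Far regions had 20% in the strongest and 12% in the weakest band. CTCF matches followed another order, with 14.3% of desert regions at fold 7.27 to 9.18, 8.13% above that and 3.51% below fold 4.86.

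Desert regions were counted by interval between neighbouring protein-coding starts, without regard to interval length. They fell into 430 intervals, and 423 of these were among the 1290 intervals longer than 400 kb. The rule itself requires such a length wherever a coding start lies on both sides. Of the 1290, the others held no desert region. A single desert region was found in 183 intervals, 2 to 4 in 172, and 5 or more in 75, which together held 658 regions. The 73 fullest intervals, 17% of the 430, held 50% of all desert regions. With neighbours linked up to 25 kb apart, 408 regions (31.7%) formed 98 clusters of 3 or more, 272 formed pairs and 607 stood alone. Outside the receptor loci there were 92 clusters with 347 regions.

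The 5 intervals with most desert regions were Olfr1507 to Dad1 with 73, Adam6a to Zfp386, Adgrl2 to Adgrl4 and Sox5 to Bcat1 with 18 each, and Camk1g to Plxna2 with 15. The first of these is the T cell receptor alpha locus and Adam6a to Zfp386 is the immunoglobulin heavy chain locus. Between the adhesion receptor genes Adgrl2 and Adgrl4 the 18 regions were spread over 1393 kb, with fold 4.59 to 11.1 and 11 GATA matches. Between Sox5 and Bcat1 the 18 were packed into 344 kb, with fold 4.71 to 9.92 and 12 GATA matches. Neither interval held a CTCF match.

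**Figure D5:**
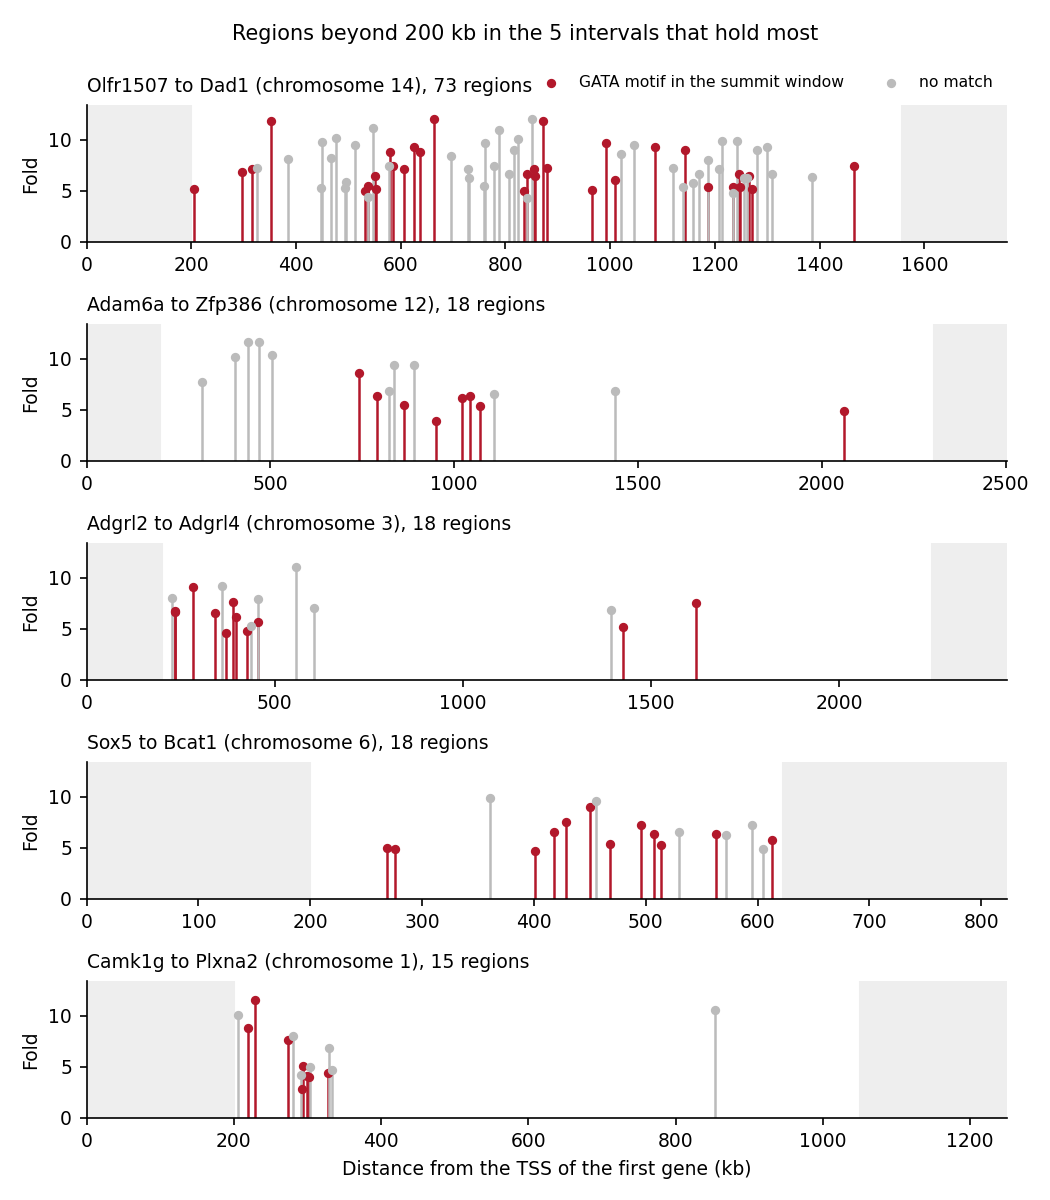
Fold of each desert region (y) against distance from the first gene's TSS (x, kb) in the 5 intervals with most desert regions; red marks a GATA match in the summit window, grey none, and the shaded ends are the 200 kb next to each gene. The T cell receptor alpha interval, Olfr1507 to Dad1, holds 73 regions and Sox5 to Bcat1 holds 18 in 344 kb.

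Outside the receptor loci, the largest cluster was 11 regions in 59.2 kb between Camk1g, a calcium-dependent kinase gene, and Plxna2, a semaphorin receptor gene. Their fold was 2.95 to 7.28 in replicate 1 and 4 to 8.43 in replicate 2, where 1 of the 11 had no peak, all 11 were single-copy, 6 held a GATA match and 6 were in both thresholded lists. Beside Gfra2, 8 regions in 72.8 kb all held a GATA match and 3 held the composite, and the strongest, chr14:71216775-71217566, had fold 7.97 in replicate 1 and 10.6 in replicate 2. Another 8 lay in introns of Smyd3 with fold 5.04 to 9.25. Between Tbc1d1 and Klf3, a KLF-family repressor gene of erythroid cells, 8 regions in 35.5 kb included 7 with a GATA match. The strongest of these, chr5:64567705-64568586, had fold 11 in replicate 1 and 13.2 in replicate 2 and stood 235 kb from the Klf3 start.

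In the interval from Myc, the growth-promoting transcription factor, to Gsdmc there were 12 desert regions, 204 to 1614 kb from the Myc start, and 7 of them formed a cluster of 50 kb within introns of the noncoding gene Pvt1. All 7 held a GATA match, with fold 3.92 to 7.84 in replicate 1 and 3.21 to 7.25 in replicate 2, where 1 of the 7 had no peak.

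Of the 93 desert regions in antigen receptor loci, 60 lay within 1 kb of the start of a named gene segment. The T cell receptor alpha and delta locus (chr14:52427928-54224206) held 73, out of 83 accessible regions in the whole locus, and 48 of them (65.8%) lay within 1 kb of a segment start, at a median of 415 bp over the 73. The fold of the 73 ran from 3.64 to 11.3 in replicate 1 and from 3.89 to 12.9 in replicate 2, and 4 of them lacked a peak in 1 of the libraries. The immunoglobulin heavy chain locus (chr12:113254830-116010093) held 18 of its 27 regions, 12 of them within 1 kb of a segment. The kappa locus held 2, at a median of 4834 bp from a segment start, and the lambda locus 0. The beta T cell receptor locus (19 regions) held no desert region. The gamma locus (7) was spanned from 5 segments named Trg (chr13:19210343-19342212), and that span held none. A desert region at the segment Tcrg-V7, which has another form of name, lay outside that span. It is not among the 93 and is counted among the 1194 outside the loci, so the gamma locus may hold more than the span shows. Only 23 of the 93 (24.7%, 17.1 to 34.4) were in both thresholded lists, a GATA match was in 40 (43%, 33.4 to 53.2) and a CTCF match in 19 (20.4%, 13.5 to 29.7). The corresponding shares in the 1194 desert regions outside the loci were 39.8% in both lists, 57.9% with GATA and 9.97% with CTCF (8.39 to 11.8). Of the 93, 67 belonged to families of like sequence. The intervals for the 93 count each copy as a separate region, so they may be too narrow.

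Much of the alpha locus is duplicated in C57BL/6J, and its desert regions came as sets of copies. There 22 families of like sequence covered 63 of the 73, of which 14 had 3 copies, 7 had 2 and 1 had more; 15 of the 73 summits were mostly single-copy. The region beside Trav8d-2 had fold 11.3 in replicate 1 and 8.8 in replicate 2, that beside Trav8n-2 had 10.7 and 10.8, and that beside Trav8-2 had 9.36 and 8.37. A second set lay about 3 kb from Trav13d-1 (10.2 and 11.3), Trav13n-1 (9.36 and 12.9) and Trav13-1 (7.58 and 9.5). In the heavy chain locus 17 of 18 summits were mostly single-copy, and regions beside Ighv4-1 (8.81 and 8.93), Ighv4-2 (10.5 and 10.2), Ighv11-1 (10.8 and 10.2) and Ighv11-2 (8.32 and 9.98) had the highest pooled folds of those within 1 kb of a segment. All copies named here had a peak in both libraries.

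Promoters of lymphocyte marker genes were read beside this. None of the 4 T cell markers with a coding TSS (Cd3e, Cd3g, Cd8a and Lck) had an accessible promoter in either library. Of the B cell markers read, Cd79a and Ms4a1 had none, and Pax5 had fold 9.62 in replicate 1 and 11.2 in replicate 2. Granulocyte and macrophage markers were at 0 of 5, liver at 1 of 3 (Apoa1) and neuron at 1 of 3 (Snap25). Of the erythroid and megakaryocyte markers, Gata1 (4.69 and 5.12), Klf1 (4.86 and 6.34) and Epor (7.93 and 9.35) were among those with an accessible promoter in the conservative list, and Itga2b had none there.

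Genes beside desert regions were next compared with other genes. The nearest protein-coding genes on either side of desert regions numbered 783, or 3.59% of 21829, and 466 of them (59.5%, 56 to 62.9) had an accessible promoter, against 64% of genes beside far regions and 54.5% of all protein-coding genes. The difference was -4.47 points from genes beside far regions (-8.26 to -0.744) and 5.21 points from genes that flank no desert region (1.67 to 8.66). A gene can lie beside both desert and far regions. Those groups may thus share genes, which the interval of their difference does not allow for. Flanking is a matter of position, and no contact between a region and a gene was measured.

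The 3 gene lists below were chosen with earlier results of these data known, and the densities at 200 to 300 kb were picked with their values in view. The contrasts therefore describe these lists and are not independent support. Among 52 haematopoietic transcription factor genes, 19 flanked desert regions, with 98 regions in all, and all 19 had an accessible promoter. Only 22 of the 52 border a gap long enough to hold a desert region (over 400 kb), so 86.4% of those able to flank did so, against 37.8% of all genes able to. The desert sequence beside them, 19.4 Mb, held 5.04 regions per Mb, against 1.85 over all deserts, and 66.3% of these regions had a GATA match. Of 35 genes for haematopoietic signalling and surface proteins, 7 flanked desert regions (7 of 8 able to), all 7 with an accessible promoter, at 7.33 regions per Mb over 3.82 Mb and 53.6% with GATA. Of 52 genes for synapse and neural adhesion proteins, all beside such gaps, 27 flanked desert regions (51.9%, also above the 37.8% of all genes able to), 7 of the 27 with an accessible promoter, at 0.436 regions per Mb over 126 Mb and 45.5% with GATA. The neural deserts are longer, and density falls with distance from a TSS. Within 200 to 300 kb of the nearest TSS the density was 10.3 per Mb beside the transcription factor genes (54 regions in 5.24 Mb), 12.1 beside the signalling and surface genes (18 in 1.49 Mb) and 1.31 beside the neural genes (23 in 17.6 Mb), against 3.46 in all such sequence. A flanking gene is not always the nearest one: 62 of the 98, 16 of the 28 and 26 of the 55 regions had a gene of their own list as the nearest.

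The regulators with most flanking desert regions were Myc with 13 (12 toward Gsdmc and 1 on its other side), Zeb2 with 10, Sox4 and Sox6 with 9 each, and Mef2c and Mycn with 7 each, though 6 of the Mycn regions lie nearer to Fam49a. Zeb2 encodes a zinc-finger repressor needed in blood formation, and its regions lay 234 to 3254 kb away. The strongest, chr2:45434042-45434661, was at 317 kb and had fold 12.6 in replicate 1 and 11.8 in replicate 2. Sox6 is known to silence fetal globin genes, and its 9 regions, at 209 to 661 kb and 5 of them nearer to Insc, had fold 4.93 to 7.65 in replicate 1 and 4.53 to 9.81 in replicate 2. Sox4 was the nearest gene for 4 of its 9 regions, Zeb2 for 8 of its 10 and Myc for 10 of its 13. The 9 Sox4 regions held 4 composite matches, and the strongest, at 252 kb, had fold 10.7 and 11.1. At Mef2c, a factor of megakaryocytes and lymphoid cells, the strongest region stood 225 kb away with fold 14.1 and 12.2.

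Fewer regions lay beside other known regulators. Runx1, required for blood stem cells and platelets, had 6 at 304 to 533 kb, of which 5 held a GATA match and 3 the composite. Runx1 was the nearest gene for 4 of these 6. The strongest, chr16:93147517-93148368, had fold 9.43 in replicate 1 and 9.92 in replicate 2. Meis1, a homeobox factor of stem cells and megakaryocytes, had 6 at 264 to 853 kb, the strongest with 11.7 and 10.8. The inhibitor gene Id2 had 3 at 204 to 371 kb, all with the composite, the strongest with 13 and 13.1. Bcl11a, the fetal globin repressor, had 5, of which 2 held a GATA match, and Klf6 had 5 with 4, of which 3 lie nearer to Akr1e1. Ets1 and Foxo1 had 4 each, Ebf1, Gata3, Ikzf2 and Tcf4 had 2 each, and Runx2 and Satb1 had 1 each. Foxo1 was the nearest gene for 1 of its 4 and Tcf4 for 1 of its 2, while Ikzf2, Runx2 and Satb1 were the nearest for 0. Meis1 was the nearest for 5 of its 6 and Bcl11a for 4 of its 5.

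Among surface and signalling genes, Ptprc, which encodes CD45, had 10 desert regions 274 to 962 kb away, 8 with a GATA match, and 5 of the 10 lie nearer to Nr5a2. One of the strongest, 851 kb from Ptprc and nearer to Nr5a2, had fold 9.78 in replicate 1 and 11.4 in replicate 2. Angpt1, a ligand of the TEK receptor, had 7 at 213 to 469 kb and was the nearest gene for 5 of them. Kit, the stem cell factor receptor of these progenitors, had 2 at 204 and 211 kb, with fold 4.69 and 3.73 in replicate 1 and 4.39 and 4.66 in replicate 2, and neither held a GATA match. The Kit regions were weak in both libraries, and both also lay 202 to 209 kb from Pdgfra. Rgs18, a G-protein regulator of platelets, had a region at 364 kb with fold 11.5 and 11.2.

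Among the neural genes, Robo2, an axon guidance receptor, had 8 desert regions at 880 to 970 kb, which lie nearer to Lipi, and no accessible promoter. Csmd3 had 6 and Cdh8, Epha7 and Flrt2 had 4 each. Of these genes, Csmd3 and Epha7 had an accessible promoter. Csmd3 was the nearest gene for 0 of its 6, Flrt2 for 1 of its 4 and Cdh8 for 3 of its 4. The remaining neural genes had 1 to 3 each.

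The most remote desert region, chr1:102628181-102628384, stood 2140 kb from Cdh20 and had fold 8.57 in replicate 1 and 9.72 in replicate 2. Next came chr1:101902187-101902714 at 1805 kb (9.79 and 9.98), chr12:93928485-93929481 at 1763 kb (5.78 and 5.78), chr8:50293592-50293865 at 1450 kb (5.39 and 7.35) and chr8:100851059-100851320 at 1435 kb (4.41 and 4.99). All 5 were found in both libraries and none held a GATA match. The one on chromosome 12 lies beside a pseudogene and matches sequence next to the Lysmd1 start. At the inner edge of the rule, the nearest desert regions to 200 kb had fold 5.83 (Disc1), 5.55 (Opa1 to Hes1) and 12 (Wwox to Maf), and the nearest regions on the other side had 7.26 (Atg4a), 8.8 (Emx2 to Rab11fip2) and 5.53 (Klf14 to Mkln1).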

How the data were processed

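ATAC-seq peak lists of 2 libraries of 1 group were used. The authors deposited them in narrowPeak layout on mm10, derived from filtered alignments with excluded regions removed, per the read-me texts; for aligner, caller, multi-mapping rule, Tn5 offset and depth nothing is given in the sources used here. Each peak has a ratio (its fold) and a −log10 p-value, both as the authors deposited them. From the 9 lists used, regions were merged, assigned to the nearest protein-coding TSS and matched to each library's lists. Fold per library is that of its strongest overlapping peak in any of its lists. The 16 columns of per-library values in other tables were not used.

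Regions were aligned to the mitochondrial genome with BLAST+ 2.17.0 (at least 50 bp at 80% identity). A summit was mostly single-copy where at least 50% of its 31-base words were unique in the C57BL/6J assembly; copies needed 100 bp at 90% identity. Intervals are Wilson, Newcombe or order-statistic at 95% and cover counting error only, over regions, which are not replicates. With 1 group no test over samples was possible. Scripts ran in Python 3.11.15 and were tested on simulated data. Named regions are the 10 highest folds, the 5 highest mitochondrial folds, the 5 largest clusters and intervals, the 5 farthest, 3 at each edge of the rule, 2 per library alone, the 5 strongest with the composite and 3 with CTCF; genes are those flanking them and listed genes that flank a desert region. Others, such as Firre, the Trav13, Ighv and further pseudogene examples, the host genes and the densities at 200 to 300 kb beside gene lists, were picked with their values in view. Regions and lists were chosen with earlier results of these data known. Some regions and marker genes that these rules name are not reported here. Alternatives changed the list, summit window, cluster gap, TSS set, overlap, thresholds and library.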

Additional observations from a re-analysis of the deposited data

How the results depend on the processing

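Of 61 alternatives over 8 results, 36 kept the value within the stated margin and 25 moved it. The number of desert regions, 1287, became 755 in the upper 50% of regions by fold, 2756 in the replicated list, 51 with TSS of all gene types, and 621 to 705 from 1 library's IDR-thresholded list. The mitochondrial share, 0.618%, became 0.309% at 95% identity over 100 bp and 0.289% in the replicated list. The share in both thresholded lists, 38.7%, was 91.2% in the longer lists, 60.9% in the upper 50% by fold, and 46.4% to 52.1% for a single library. The median fold, 7.11, was 7.39 in the list of pooled pseudoreplicates, 8.82 in the upper 50%, and 8.08 to 8.5 in 1 library's IDR-thresholded list. The GATA share, 56.8%, was 40.5% and 66.1% with windows of 50 and 150 bp each side. In 1 library's IDR-thresholded list it was 62.1% to 63.3%, and the CTCF share, 10.7%, was 8.53% to 9.36%. The 98 clusters became 32 in the upper 50%, 47 with a gap of 10 kb, and 28 to 33 in 1 library's IDR-thresholded list. Taking 1 library's list also changed the kind of list, so the effect of leaving out a library cannot be told apart. The share of flanking genes with an accessible promoter, 59.5%, was 47.9% when the promoter region had to be in both thresholded lists. A shorter or longer list, window or gap sets these counts by construction; the cause of the other moves was not tested. With antigen receptor loci set aside, an alternative chosen after seeing the data, there were 1194 desert regions, 39.8% in both lists and 57.9% with GATA. With multi-copy regions set aside, chosen likewise, there were 1192 and 38.8%. No paired analysis was possible because the series has 1 group of 2 libraries. Depth is unknown, so weak regions missing from a library may be below its detection.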
